A study of Mus musculus with 6 samples.

Results

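Liver of high-fat fed, JT003-treated mice was compared directly with liver of mice on the control diet. JT003 is a peptide agonist of both adiponectin receptors, AdipoR1 and AdipoR2, which relay the signal of the fat-derived hormone adiponectin. The comparison used 2 of the 6 samples of the series, the library labelled JT003-HFD and the library labelled CD, and it addressed what still separated the treated liver from the control liver. Of the 18444 genes listed in the series, 13402 reached 10 counts in one library or the other and were compared.

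All libraries came from livers of male mice of the strain C57BL/6, which the study's text gives as C57BL/6J, given as 6 to 8 weeks of age in the labels, with no genetic modification named. The labels call CD a chow control, HFD a NASH liver (non-alcoholic steatohepatitis, fatty liver with inflammation) and JT003-HFD a NASH liver after treatment. The study's methods give 16 weeks of diet and daily intraperitoneal JT003 at 500 µg/kg over the last 4 weeks, call the control diet SD, and set another model on a diet that also lacked methionine and choline apart as the NASH model, which the labels do not mention. A further control library, Oil, came from the carbon tetrachloride experiment of the series, whose control mice received corn oil. Each condition had 1 library. Per the study's methods, mice went without food for 8 h before they were killed. The sources used here give neither the hour of sampling nor the number of mice behind a library.

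Expected counts, the authors' estimates of the reads of each gene, summed after rounding to 20184557 in CD and 19849140 in JT003-HFD. The log2 ratio of JT003-HFD over CD was taken from these counts after scaling by TMM factors (0.953 for CD, 1.05 for JT003-HFD), with a prior count of 2 added to both libraries. A gene was counted as past the fold where the ratio was at least 1 in size on the log2 scale, which is a 2-fold difference. The intervals in brackets are exact 95% Clopper-Pearson intervals of the ratio. They cover counting error only, and with 1 library per condition there was no replicate check and no test.

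In liver, PPARα is the nuclear receptor that senses fatty acids and switches on their oxidation in peroxisomes and mitochondria during fasting. Adiponectin signalling through its receptors is known to act on AMPK and PPARα. Fat overload and defects of protein folding engage the unfolded protein response of the endoplasmic reticulum, which raises chaperones such as Hspa5.

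Between JT003-HFD and CD, 1491 genes (11.1%) were past the fold, 880 higher (6.57%) and 611 lower (4.56%) in JT003-HFD. With scaling to total counts in place of TMM, 1130 genes were higher and 481 lower, so that the higher share of the genes past the fold was 70.1% against 59.0%, since the median of all tested genes was then 0.13 in place of -0.0018 on the log2 scale. Counted in the same way, 1340 of 13335 genes (10%) were past the fold between HFD and CD, and 1472 of 13302 (11.1%) between the control livers Oil and CD. The share of genes that separated the treated liver from CD was thus about that between the 2 controls, which came from different experiments. In JT003-HFD over CD, 38.6% of the genes differed by less than 0.25 on the log2 scale. The shares of 6.57% higher and 4.56% lower are the background for the counts in each gene list below. Low counts carried much of the list, as 483 of the higher and 247 of the lower genes had under 100 counts in the library with more.

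**Figure D1:**
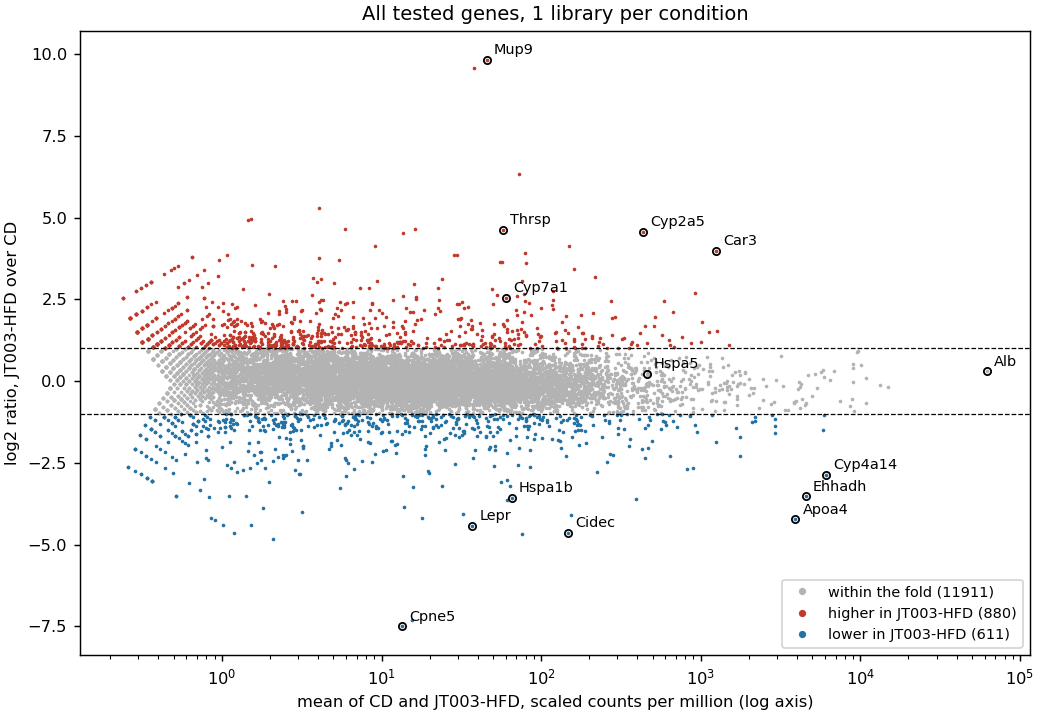
Each point is 1 of the 13402 tested genes, with the mean scaled count of CD and JT003-HFD on a log axis and the log2 ratio of JT003-HFD over CD on the vertical axis. The 880 higher and 611 lower genes lie beyond the dashed lines at 1 and -1, and Cyp4a14, Ehhadh and Apoa4 stand out as abundant genes far below them.

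The tissue label was checked first. Albumin took 5.29% of the counts in CD and 7.20% in JT003-HFD, and all 12 hepatocyte markers were present, 3 of them past the fold and lower (Tat at -1.34, Ass1 at -1.23 and Cps1 at -1.03). With scaling to total counts, 2 were lower, as Cps1 was at -0.89, and 1 was higher, Cyp2e1 at 1.04. Under TMM scaling the 12 markers had a median log2 ratio of -0.47, with 9 ratios below 0. The 15 Kupffer cell and macrophage markers had a median log2 ratio of 0.47, with 3 higher and 1 lower, and their summed FPKM (fragments per kilobase of transcript, scaled to the library) was 166 in CD, 189 in HFD, 243 in JT003-HFD and 41.3 in Oil. Markers of hepatic stellate cells (median 0.28, 1 of 10 higher) and sinusoidal endothelial cells (median 0.19, 0 of 10 past the fold) lay closer to CD. Lymphocyte (1 of 10 tested higher), neutrophil (2 of 4 tested higher) and cholangiocyte markers (1 of 6 tested higher) were mostly under 100 counts, the exceptions being Ly6g (48 and 151), Sox9 (111 and 102) and Spp1 (398 and 370). Of 4 tested red blood cell markers 1 was higher, and the globin gene Hba-a1 was at -0.59. The tested acinar marker was Cela1 with 102 counts in CD and 237 in JT003-HFD, and the tested muscle marker was Mylpf with 10 and 8. Of 4 tested adipocyte markers, Cfd (2 counts in CD and 166 in JT003-HFD), Car3 (2830 and 48771) and Cidea (4 and 18) were higher and Fabp4 (260 and 102) was lower, with a median log2 ratio of 2.82. Cfd and Cidea passed the count filter through JT003-HFD alone, and without a filter the median of the adipocyte list was 1.65. Among the untested ones, Adipoq had 0 and 0 counts and Plin1 had 1 and 0. The part of adipose tissue in these values was not tested. The 4 tested genes of the sex chromosome list, all Y-linked, were within the fold, and Xist had 3 and 8 counts. In whole tissue, fewer cells of a type and less RNA per cell cannot be told apart.

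**Figure D2:**
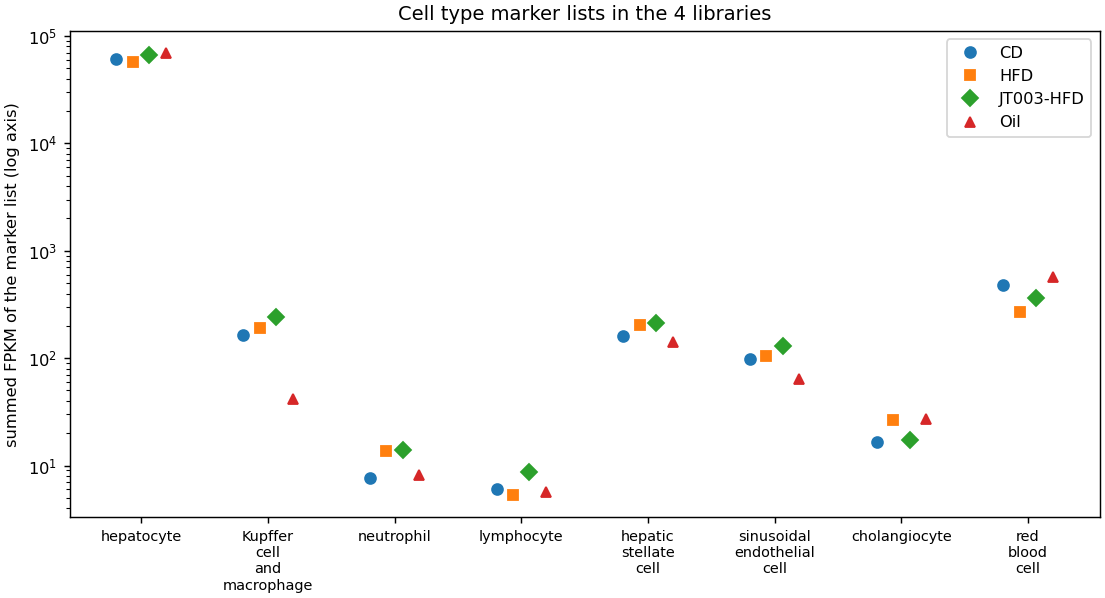
Summed FPKM of each cell type marker list (log axis) in the CD, HFD, JT003-HFD and Oil libraries, 1 point per library. The macrophage sum is 243 in JT003-HFD, 166 in CD and 41.3 in Oil, while the hepatocyte sums lie close together.

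Abundant genes of the fatty acid oxidation programme under PPARα were well below CD in the treated liver. Of 10 tested fatty acid omega-hydroxylases, 6 were lower and 0 higher, with a median log2 ratio of -1.57. The study displayed 3 of them for these samples (Cyp4a10, Cyp4a14 and Cyp4a31), and of the other 7 genes 3 were lower, with a median of -0.32. Of 13 peroxisomal oxidation genes, 5 were lower and 1 higher (median -0.56), and of 13 other PPARα targets 7 were lower and 0 higher (median -1.08). With scaling to total counts, 4 peroxisomal genes and 6 other targets were lower, with medians of -0.42 and -0.94. Of 19 genes of mitochondrial oxidation and ketogenesis, 0 were past the fold, where 11.1% of all tested genes were. Ratios below 0 numbered 17 (16 with scaling to total counts) and the median was -0.53. These medians stand beside -0.0018 for all tested genes and -0.47 for the 12 hepatocyte markers, of which 9 had ratios below 0. For Oil over CD, which shares the CD library, the median was -0.45 for the peroxisomal genes and -0.67 for the other targets. It was -0.09 for the omega-hydroxylases and -0.18 for the mitochondrial genes. The peroxisomal and other target lists were thus also lower in the control Oil than in CD.

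Cyp4a14, a microsomal omega-hydroxylase of fatty acids, had 206802 counts in CD, 7401 in HFD, 30625 in JT003-HFD and 107814 in Oil. JT003-HFD lay 7.31-fold below CD (log2 ratio -2.87 [-2.89, -2.85]), between the HFD and the control livers. Cyp4a10 had 84554, 9592, 30161 and 71264 counts in the same order (log2 ratio -1.60), and Cyp4a31 had 2679, 259, 853 and 1952 (-1.76). The Cyp4a genes are near-identical copies, so reads may have been split among them, and the single values are uncertain. Cyp4a32 (-1.77), Cyp4a12a (-1.61) and Cyp4a12b (-1.54) were also past the fold, whereas the Cyp4f members ranged from -0.32 to 0.73.

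Ehhadh, the bifunctional enzyme of peroxisomal beta-oxidation, had 161285 counts in CD, 6754 in HFD, 15107 in JT003-HFD and 48808 in Oil. Its log2 ratio was -3.53 [-3.55, -3.51], or 11.6-fold lower in JT003-HFD. Crot (-1.87) and Crat (-1.72), which attach carnitine to the shortened chains, and the thiolase gene Acaa1b (-1.39) were lower as well. Abcd2, a peroxisomal fatty acid transporter, went the other way with 143, 328, 585 and 157 counts (1.90 [1.65, 2.19]).

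Pdk4, a kinase that spares glucose by blocking pyruvate dehydrogenase, had 2207 counts in CD, 128 in HFD, 259 in JT003-HFD and 364 in Oil (-3.19 [-3.40, -3.02]). Fgf21, the fasting hormone of the liver, had 691, 73, 205 and 215 counts (-1.86). In both genes CD stood above the other 3 libraries, the oil control included. The carnitine transporter Slc22a5 (-1.72) and the droplet protein gene Hilpda (150 counts in CD, 39 in JT003-HFD) were lower too, while Vnn1, which encodes pantetheinase, was near CD at 0.10. Among mitochondrial genes the lowest ratios belonged to Cpt2 (-0.93) and Cpt1a (-0.86), the carnitine palmitoyltransferases, and Etfdh (-0.81), which passes electrons from oxidation to ubiquinone.

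Of 12 tested acyl-CoA thioesterases, which release free fatty acids from coenzyme A, 4 were lower and 1 higher, with a median of -0.26. The median was -0.50 without Acot1, Acot3 and Acot4, which the study displayed. For Oil over CD the median of the full list was -0.74. Acot1 had 10856 counts in CD, 1129 in HFD, 2971 in JT003-HFD and 5100 in Oil (-1.98 [-2.04, -1.92]), and Acot2 was at -2.58. Acot3 and Acot4 were not lower than CD. Acot3 had 840, 192, 1350 and 352 counts (0.57 [0.45, 0.70]) and Acot4 had 1461, 567, 1773 and 619 (0.17). Acot1 to Acot6 are closely related, which leaves the share of each uncertain. Acot11 was the higher member, with 80 counts in CD and 226 in JT003-HFD (1.36).

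**Figure D3:**
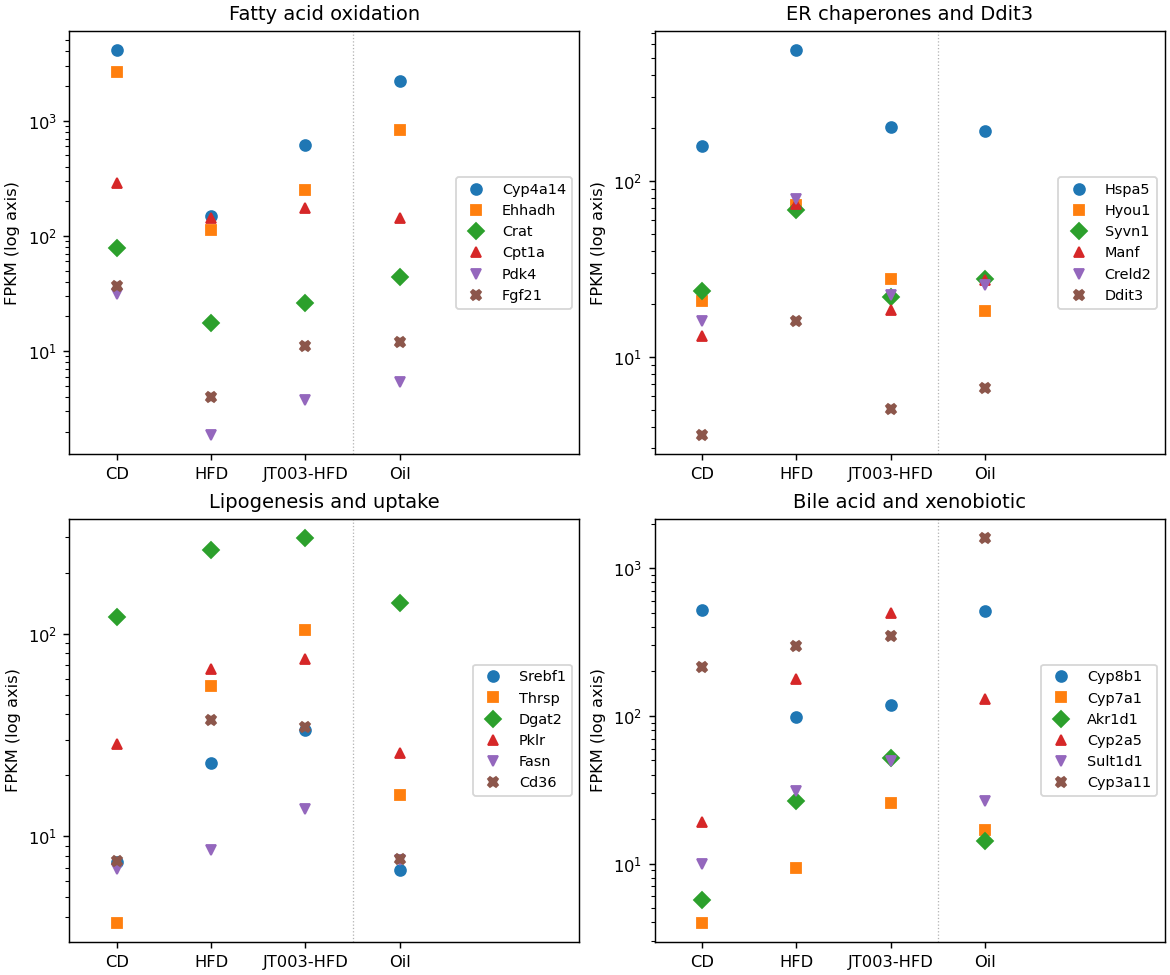
FPKM of selected genes (log axis) in the CD, HFD, JT003-HFD and Oil libraries, 1 point per gene and library, with the dotted line setting off the control of the other experiment. Cyp4a14 and Ehhadh in JT003-HFD lie nearer to HFD than to CD, Hspa5 and Manf lie near CD, and Srebf1 and Thrsp lie above CD and above HFD.

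Genes of fat storage were split. Of 20 genes of fatty acid uptake and the lipid droplet, 7 were lower and 4 higher than in CD, with a median of -0.51. Cidec, which fuses lipid droplets, had 5423 counts in CD, 802 in HFD, 233 in JT003-HFD and 1987 in Oil (-4.64 [-4.85, -4.47]), the lowest level being in the treated liver. Plin2, the main droplet coat protein of the liver, had 56306, 15017, 12516 and 22002 counts (-2.28). Plin5 (-2.04) and the lipases Pnpla2 (-1.89) and Mgll (-1.40) were lower with it. On the other side, Cd36, a fatty acid transporter, had 541, 2576, 2375 and 522 counts (2.02 [1.89, 2.16]), so that the treated liver stayed at the HFD level while both controls were alike. Plin4 (1.34), the nuclear receptor gene Pparg (1.18) and Cidea (1.65) were also higher. Cidea had 4 counts in CD, 386 in HFD, 18 in JT003-HFD and 9 in Oil, which set the treated liver near the controls. This gene passed the count filter through JT003-HFD alone.

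Lipogenesis genes went in both directions. Of 19 fatty acid synthesis genes, 4 were higher and 4 lower, with a median of -0.20. Thrsp (Spot 14), which promotes lipogenesis, had 84 counts in CD, 1204 in HFD, 2297 in JT003-HFD and 347 in Oil (4.63 [4.34, 4.99]), and Srebf1, the master regulator of fatty acid synthesis, had 664, 2008, 2905 and 586 (2.01). In both, the treated liver was the highest of the 4. Pklr, liver pyruvate kinase, was at 1.26 and Dgat2, which makes triglycerides, at 1.15. Fasn had 1408, 1714, 2731 and 1506 counts and stayed within the fold (0.84). Acacb (-2.64), the mitochondrial acetyl-CoA carboxylase, the elongase gene Elovl5 (-2.66), malic enzyme Me1 (-1.19) and the desaturase gene Scd1 (-1.15) were lower. Scd1 had 77058 counts in CD, 53169 in HFD, 37697 in JT003-HFD and 74180 in Oil.

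In glucose metabolism, 4 of 16 genes were higher and 3 lower, with a median of 0.01. Shares among all tested genes were 6.57% and 4.56%, and the list median for Oil over CD was 0.10. The glycogen branching enzyme Gbe1 (1.39), Ugp2 (1.33), which makes the sugar donor of glycogen, and the glucose transporter Slc2a2 (1.29) were among the higher members. G6pc, glucose-6-phosphatase, had 12625 counts in CD, 2934 in HFD, 8632 in JT003-HFD and 8164 in Oil (-0.66 [-0.70, -0.62]), which placed the treated liver close to the oil control and within the fold of CD. Igfbp1 (-1.95), Irs2 (-1.58), the insulin receptor substrate, and Tat (-1.34), which breaks down tyrosine, were lower. Slc37a1, a glucose-6-phosphate transporter, was at -0.28.

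Cholesterol synthesis genes leaned upward. Of 23 targets of SREBP2, 6 were higher and 1 lower, and 19 had ratios above 0, with a median of 0.57. The list median for Oil over CD was 0.09, and 6.57% of all tested genes were higher and 4.56% lower. Msmo1, a sterol demethylation enzyme, had 336 counts in CD, 568 in HFD, 1168 in JT003-HFD and 588 in Oil (1.68 [1.51, 1.86]). The feedback protein gene Insig1 (1.60) and Fdft1, squalene synthase (1.37), followed. Hsd17b7, a sterol reductase (-1.27), was the lower member. In the promoter windows described below, the letters TCACNCCAC were present in 1 of 15 members (Hmgcs1) and in 1.44% of all genes.

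Bile acid genes diverged by enzyme. Of 14 tested, 4 were higher and 2 lower (median 0.25), where 6.57% and 4.56% of all tested genes were. The median of the same list was 0.24 for the control Oil over CD, which shares the CD library. Cyp7a1, the rate-limiting enzyme of bile acid synthesis, had 339 counts in CD, 781 in HFD, 2160 in JT003-HFD and 1387 in Oil (2.55 [2.39, 2.73]), a 5.86-fold difference. Its level in CD was the lowest of the 4. Akr1d1, which reduces the sterol ring, had 312, 1424, 2815 and 758 counts (3.05). Cyp8b1, which directs synthesis to cholic acid, had 20532, 3772, 4563 and 19408 (-2.28), so that both high-fat livers were below both controls. The sterol exporters Abcg5 (1.40) and Abcg8 (1.02) were higher and the phospholipid exporter Abcb4 (-1.04) was lower. With scaling to total counts Abcb4 was within the fold, and 1 of the 14 genes was lower.

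Chaperones of the endoplasmic reticulum stayed within the fold of CD in the treated liver, mostly with ratios above 0. Of 23 genes of folding and degradation in this compartment, 0 were past the fold in either direction, beside 11.1% of all tested genes. The median was 0.36, beside -0.0018 for all tested genes, with 19 ratios above 0 and a range from -0.64 to 0.82. Between HFD and CD, which share the CD library with this comparison, the median of the same list was 0.98. That value includes the genes that the study displayed. Promoters of this list carry a known control sequence, and 4 of them are shown to let the reader see it. The windows are from the RefSeq promoter table of mouse build GRCm38.p6, which holds 300 bases around the start of each gene, and were matched by gene ID, since the deposited files name mm9. Capitals mark a match to the endoplasmic reticulum stress element, spelled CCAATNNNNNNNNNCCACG and searched on both strands.
Hspa5, chr2:34772005-34772063, plus strand: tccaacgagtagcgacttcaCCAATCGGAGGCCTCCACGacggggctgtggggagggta
Syvn1, chr19:6046512-6046570, plus strand: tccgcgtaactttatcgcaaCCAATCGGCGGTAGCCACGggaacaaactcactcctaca
Creld2, chr15:88819500-88819558, plus strand: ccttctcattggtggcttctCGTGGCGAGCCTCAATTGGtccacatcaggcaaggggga
Derl3, chr10:75893222-75893280, plus strand: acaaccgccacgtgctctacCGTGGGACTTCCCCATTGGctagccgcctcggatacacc
In Creld2 and Derl3 the match reads on the opposite strand. The element was found in 10 of the 19 list members with a promoter in the table and in 0.137% of all 27025 genes there. A match is a description of the letters and not a measured site.

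Hspa5 (BiP, GRP78), the main chaperone of the compartment, had 8141 counts in CD, 27926 in HFD, 10330 in JT003-HFD and 9516 in Oil. Its log2 ratio over CD was 0.23 [0.19, 0.27], and HFD alone stood high. Manf, a secreted stress-response protein, had 585, 3219, 814 and 1178 counts (0.36 [0.21, 0.52]). Creld2, also secreted under stress, had 435, 2126, 603 and 671 (0.36). For both, the treated liver lay between the 2 controls. Hyou1, a large chaperone of the same compartment, had 1884, 6459, 2450 and 1593 counts (0.26), and Syvn1, the ubiquitin ligase that disposes of misfolded proteins, had 1533, 4490, 1438 and 1713 (-0.21). The members farthest above CD were Herpud1 with 4282, 11040, 8193 and 5329 counts (0.82 [0.77, 0.88]) and Derl3 with 117, 497, 225 and 53 (0.82 [0.50, 1.16]), both components of the degradation machinery. The lowest ratio was that of Derl1 (-0.64). Hspa5, Manf, Creld2, Hyou1 and Syvn1 were among the genes the study displayed for these samples, so their levels are not independent of that choice, and without such genes the median of the list was 0.47.

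In the integrated stress response, the programme downstream of PERK and eIF2α, 2 of 13 tested genes were lower and 1 higher (median 0.04). Ddit3 (CHOP), the transcription factor tied to stress-induced cell death, had 62 counts in CD, 273 in HFD, 84 in JT003-HFD and 109 in Oil (0.32 [-0.17, 0.82]), an interval that includes 0. Asns, asparagine synthetase, had 205, 16, 28 and 590 counts (-2.90), and Atf5, a transcription factor of the mitochondrial stress response, had 27297, 8224, 4539 and 20118 (-2.70). Both were low in the high-fat livers and high in both controls. Chac1, which degrades glutathione, had 35, 114, 131 and 34 counts (1.74).

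Heat shock genes, chaperones of the cytosol and of mitochondria, were on the low side. Of 10 tested, 4 were lower, 0 were higher and all 10 ratios were below 0, with a median of -0.70. With scaling to total counts, 9 ratios were below 0, 3 genes were lower past the fold and the median was -0.56. Hspa1b, the inducible Hsp70, had 2320 counts in CD, 3258 in HFD, 209 in JT003-HFD and 531 in Oil (-3.57 [-3.80, -3.38]), which is 11.9-fold below CD. Its near-identical copy Hspa1a had 97, 405, 14 and 39 counts (-2.74), and reads of the pair cannot be assigned with certainty. Hspa8, the constitutive Hsp70, had 56694, 42659, 25849 and 41730 (-1.25), and Hsph1 was at -1.14. In each of these 4 genes the treated liver was the lowest of the 4 libraries, although for Hsph1 the margin to Oil was small (981 and 1003 counts). The heat shock element, spelled GAANNTTCNNGAA, was present in 3 of 7 promoters of the list (Hspd1, Hspe1 and Hsph1) and in 0.662% of all.

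**Figure D4:**
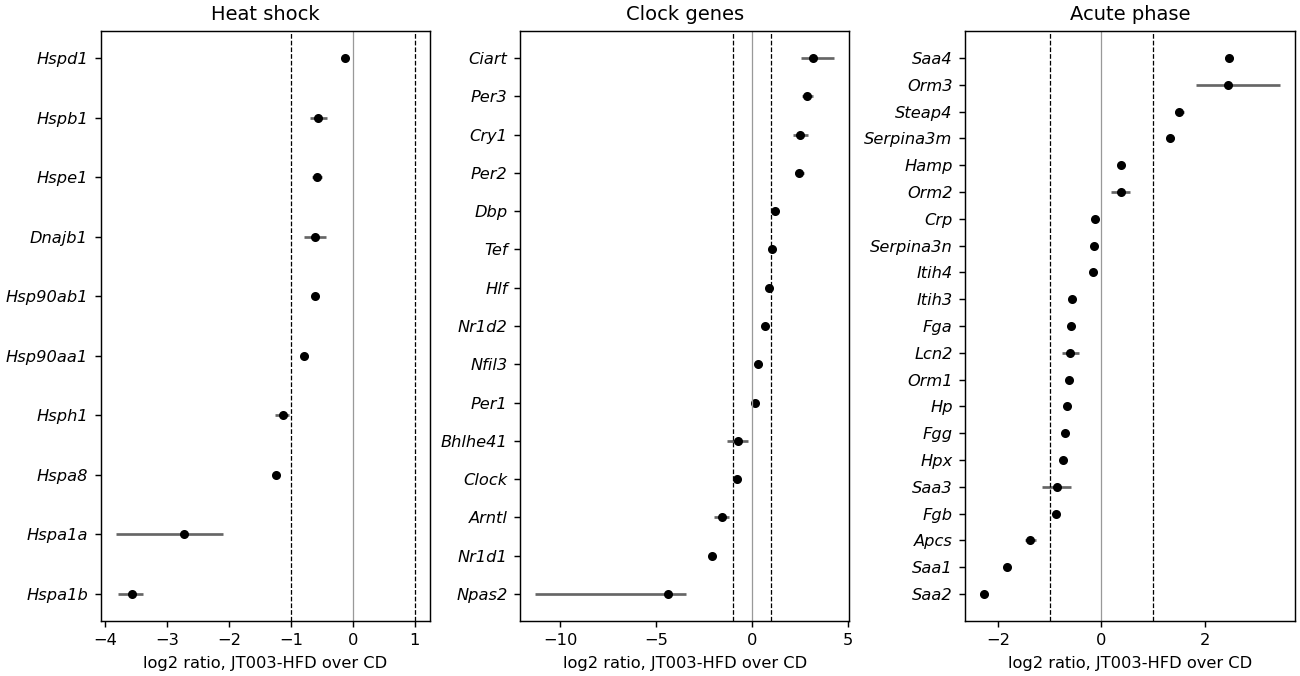
Log2 ratios of JT003-HFD over CD for the tested heat shock, clock and acute phase genes, as points with 95% intervals of counting error, and dashed lines at 1 and -1. All 10 heat shock genes lie below 0 (9 with scaling to total counts), and the clock genes spread from -4.40 (Npas2) to 3.16 (Ciart).

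Cytochrome P450 and conjugating enzymes under the drug-sensing receptors CAR and PXR were higher. Of 14 tested, 8 were higher (6.57% of all tested genes were) and 0 lower, with a median of 1.38. The median of the same list was 0.98 for HFD over CD and 0.93 for the control Oil over CD, which share the CD library. Cyp2a5, which oxidises coumarin and nicotine, had 670 counts in CD, 6101 in HFD, 17345 in JT003-HFD and 4395 in Oil (4.58 [4.47, 4.69]), with CD the lowest of the 4. The sulfotransferase gene Sult1d1 had 484, 1483, 2385 and 1246 counts (2.18) and Cyp2c50 had 4106, 9614, 14219 and 7000 (1.68). Cyp3a25 was at 1.96 with 2292, 5155, 9668 and 14129 counts. Cyp3a11, the classical PXR target, was within the fold (0.56), with 64109 counts in Oil against 8921 in CD and 14271 in JT003-HFD. Por, which feeds electrons to all microsomal P450 enzymes, had 11370, 4384, 10261 and 14677 counts (-0.26), so that HFD alone was low.

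Cyp2b9, an enzyme with higher expression in female liver, had 0 counts in CD, 856 in HFD, 1592 in JT003-HFD and 1 in Oil, at least 490-fold higher in JT003-HFD than a CD level of 3 counts. Reads may be shared with Cyp2b13 (1, 56, 31 and 0 counts) and Cyp2b10 (0, 2, 7 and 4). Of 19 female-biased genes 9 were tested, 5 of them higher and 2 lower (median 1.40, or 0.43 with log2 of FPKM plus 1). Most of them were at low counts. Cyp2b9 and Cyp2b13 were among those that passed the count filter through JT003-HFD alone, and A1bg passed through CD alone. The 2 lower ones were Cyp17a1, a steroid hydroxylase (-2.12), and A1bg with 41 counts in CD and 2 in JT003-HFD (-3.51 [-7.56, -2.53]). Of 15 male-biased genes, 4 were lower and 3 higher (median 0.04). Elovl3, an elongase of very long chains, had 14013, 2775, 1239 and 8783 counts (-3.61), Moxd1 had 950, 14, 339 and 383 (-1.59), and the steroid dehydrogenase Hsd3b5 had 186, 3521, 3081 and 454 (3.92). In the growth hormone axis, 2 of 13 genes were higher (Bcl6 at 2.50, a repressor that growth hormone lowers, and the receptor Ghr at 1.21) and 1 lower (Igfbp1), with a median of 0.20. Igf1 was near CD (0.21).

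Genes of the circadian clock differed widely. Of 10 genes of the Dbp phase, which peak in antiphase to Bmal1, 5 were higher and 1 lower (median 0.96). In the Bmal1 phase 2 of 5 genes were lower and 1 higher (median -0.78). Shares among all tested genes were 6.57% higher and 4.56% lower. For Oil over CD the median was 0.58 in the Dbp phase and -0.31 in the Bmal1 phase. Per3 had 104 counts in CD, 484 in HFD, 822 in JT003-HFD and 180 in Oil (2.85 [2.57, 3.18]), and Per2 had 191, 991, 1120 and 268 (2.43). Both are feedback repressors of the clock. Arntl (Bmal1), the activator, had 195, 46, 70 and 142 counts (-1.56), and its partner Npas2 had 58, 12, 1 and 27 (-4.40 [-11.30, -3.44]). The repressors Cry1 and Nr1d1 set JT003-HFD apart from all the others. Cry1 had 68, 112, 418 and 105 counts (2.47) and Nr1d1 (Rev-erbα) had 2649, 2342, 661 and 2427 (-2.11). Time of day and treatment cannot be told apart here, because the sampling times were not given. Ciart, a repressor of the clock activator, had 13, 143, 142 and 155 counts (3.16 [2.52, 4.28]), with CD alone low. Its promoter window is printed as an example of the E-box CACGTG, the letters bound by the clock activator, with the 3 matches in capitals.
Ciart, chr3:95882247-95882364, minus strand: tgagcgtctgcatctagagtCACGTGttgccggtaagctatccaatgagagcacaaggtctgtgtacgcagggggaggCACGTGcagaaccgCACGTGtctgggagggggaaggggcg
The E-box was present in 4 of 9 promoters of the Dbp phase, in 1 of 5 of the Bmal1 phase and in 8.09% of all.

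Acute phase proteins, which the liver secretes in inflammation, were mostly below CD. Of 21 genes, 15 had ratios below 0 (14 with scaling to total counts), 3 were lower past the fold and 4 higher, with a median of -0.60. The median of the hepatocyte markers was -0.47, and that of the acute phase list for Oil over CD was -0.28. Past the fold, 4.56% of all tested genes were lower and 6.57% higher. Saa1 had 14765 counts in CD, 9390 in HFD, 4492 in JT003-HFD and 4759 in Oil (-1.83), and the related Saa2 had 9040, 5027, 2027 and 3165 (-2.27). Apcs, serum amyloid P, was at -1.37. For all 3, JT003-HFD was the lowest library, and for Saa1 the Oil control was close to it. Saa4, the constitutive form, had 1613, 13684, 9628 and 3167 counts (2.46 [2.39, 2.54]), and Steap4, a metalloreductase, had 1241, 7800, 3822 and 882 (1.51), both between CD and HFD. Orm3 (2.45) and Serpina3m (1.33) were the other higher members.

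Of 20 genes of antigen presentation and the interferon response, 5 were higher (8 with scaling to total counts) and 0 lower, with a median of 0.69. The list median was 0.45 for HFD over CD and -0.17 for Oil over CD, and 6.57% of all tested genes were higher. Ifit1 had 71 counts in CD, 345 in HFD, 270 in JT003-HFD and 83 in Oil (1.79), and Ifit3 had 141, 459, 435 and 133 (1.50). Both are antiviral proteins induced by interferon, and the 2 high-fat livers were above both controls. The class II genes H2-Eb1 (1.10) and H2-Aa (1.10) were higher, and H2-Aa had 384, 520, 891 and 247 counts, the highest in JT003-HFD. Class II proteins present antigen on macrophages and other immune cells, and the summed macrophage markers followed the same order of libraries. The part of the macrophage markers in these ratios was not tested. The class I genes H2-K1 (-0.02) and H2-D1 (0.07) were near CD.

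Most matrix genes were within the fold of CD, as were most of all tested genes, of which 11.1% were past it. Of 29 tested genes of the extracellular matrix and myofibroblasts, 3 were higher and 2 lower (median 0.21, beside 0.64 for HFD over CD). Col1a1, the main chain of fibrillar collagen, had 178 counts in CD, 899 in HFD, 343 in JT003-HFD and 231 in Oil (0.83 [0.57, 1.10]). Col3a1 had 352, 1449, 588 and 291 (0.62) and Col1a2 had 247, 794, 383 and 323 (0.52). In all 3 collagens HFD was the highest library, and JT003-HFD lay between CD and HFD. Postn, a matrix protein of scar tissue, stayed above CD with 58, 237, 189 and 83 counts (1.56). Mmp12, a macrophage elastase (9, 156, 38 and 0 counts, 1.76), and Timp1, a protease inhibitor (2, 20, 16 and 12 counts, 2.09 [0.80, 6.05]), were the other higher genes. Both passed the count filter through JT003-HFD alone. Ctgf, a growth factor of fibrosis, had 384, 286, 107 and 228 (-1.94), the lowest in the treated liver, and Acta2, smooth muscle actin, had 31, 35, 14 and 165 (-1.15).

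The genes of both receptors of the peptide were within the fold of CD. Adipor1 had 2293 counts in CD, 2000 in HFD, 2328 in JT003-HFD and 2050 in Oil (-0.09 [-0.18, -0.01], or 0.05 with scaling to total counts), and Adipor2 had 13356, 13358, 10521 and 7941 (-0.46 [-0.50, -0.42]). Of 12 tested genes of the receptors and AMPK, 0 were past the fold (median 0.04), where 11.1% of all tested genes were. The AMPK catalytic subunits were at -0.09 (Prkaa1) and 0.38 (Prkaa2). Phosphorylation, by which AMPK is activated, was not measured in these files.

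Among the remaining lists, oxidative phosphorylation had 0 of 18 genes past the fold, where 11.1% of all tested genes were. Its members had 15 ratios below 0 and a median of -0.22 (11 and -0.08 with scaling to total counts). Of 13 tested NRF2 targets, the antioxidant programme, 1 was higher and 1 lower (Srxn1, -1.44), with a median of 0.18. The higher one, Gsta1, had 1 count in CD and 39 in JT003-HFD (3.70 [2.61, 10.51]). It passed the count filter through JT003-HFD alone. Of 17 tested mitosis genes, 6 were higher (6.57% of all tested genes were) and 0 lower (median 0.56), and all 17 had under 50 counts in both libraries. The median of the same list was 0.66 for HFD over CD and 0.77 for Oil over CD, which share the CD library. The rise over CD was thus not particular to the treated liver. Of 15 p53 targets, 2 were lower and 1 higher (median 0.38). Cdkn1a (p21), which halts the cell cycle, had 828 counts in CD, 295 in HFD, 94 in JT003-HFD and 1050 in Oil (-3.22 [-3.58, -2.94]), so that both controls were far above the treated liver, and Gadd45b was at -2.50.

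**Figure D5:**
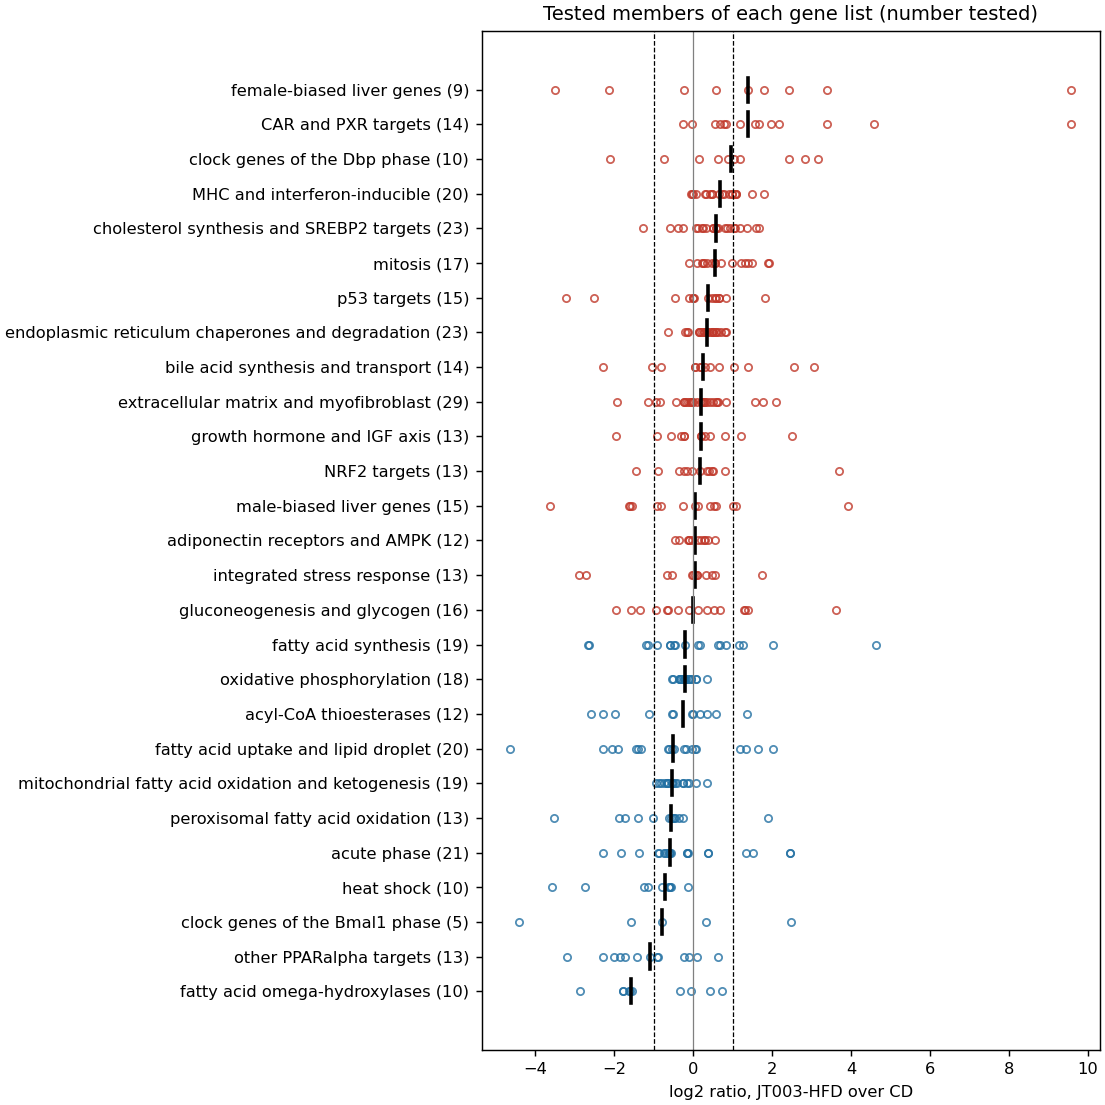
Each circle is a tested member of a gene list, placed by its log2 ratio of JT003-HFD over CD, and the black bar is the median of the list. The lists of omega-hydroxylases (-1.57) and other PPARα targets (-1.08) have the lowest medians, that of the omega-hydroxylases being -0.32 without the 3 members that the study displayed. The female-biased (1.40) and the CAR and PXR genes (1.38) have the highest. Of 19 female-biased genes 9 were tested, and their median was 0.43 with log2 of FPKM plus 1. Cyp2b9 and Cyp2b13 were among those that passed the count filter through JT003-HFD alone.

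The genes at both ends of the ranking, among those with 100 or more counts, included members of the lists above and others. Apoa4, an apolipoprotein of triglyceride-rich particles, had 142917 counts in CD, 17654 in HFD, 8232 in JT003-HFD and 57854 in Oil (-4.23 [-4.26, -4.20]), 18.8-fold lower in the treated liver. Lepr, the leptin receptor, had 1365, 58, 67 and 306 counts (-4.42), and Cpne5, a calcium-binding copine, had 516, 1, 1 and 18 (-7.51 [-14.43, -6.64]). In these genes CD was the highest library. Gm15441 had 5570, 95, 354 and 723 counts (-4.08), and since it is antisense to Txnip and strandedness was not given, its reads cannot be told apart from those of Txnip. The transcript 3930402G23Rik had 598 counts in CD and 2 in JT003-HFD (-7.31 [-11.39, -6.48]). Cntnap1, Cgref1, Spon2, Npnt, Agap2 and Lamb3 were also among the 15 lowest, with ratios from -4.68 to -3.63. At the other end, Mup9, a major urinary protein, had 0 counts in CD, 12624 in HFD, 1900 in JT003-HFD and 5801 in Oil, at least 585-fold higher in JT003-HFD than a CD level of 3 counts, though reads of the Mup copies are easily assigned to one another. Car3, a carbonic anhydrase, had 2830, 39704, 48771 and 9536 counts (3.99), and Cfd (adipsin), a complement protease, had 2, 454, 166 and 175 (5.31 [4.39, 9.32]). Both belong to the adipocyte list above. The nucleoside enzyme Upp2 was at 4.14 with 308, 3399, 5921 and 3731 counts, and the signalling regulator Rgs16 at 3.84 with 73, 1102, 1162 and 122. Dsg1c, Gbp10, Gbp11, Hsd3b2, 9030619P08Rik and C730036E19Rik completed the 15 highest, with ratios from 3.86 to 6.35. Of the remaining genes that the study displayed, Piga, of the anchor synthesis pathway (0.02), and P4ha1, a collagen hydroxylase (-0.20), were near CD.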

How the data were processed

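Liver RNA was sequenced on a BGISEQ-500, per the labels. For each library the authors deposited an expected count per gene, not normalized and about 70% whole (70.0% in CD, 70.1% in JT003-HFD), and an FPKM value, which the authors scaled to transcript length and library. The submitters' processing notes name HISAT, Bowtie2, RSEM and mm9, without roles or versions. The authors also deposited 4 comparison tables with their own log2 ratios and p-values, which were not used, and 8 expression columns of these tables were not used either.

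Expected counts were rounded. Sizes were scaled by TMM over the 2 libraries (edgeR 4.0.16, R 4.3.3), and HFD did not enter the ratio. Genes needed 10 counts in either library. The log2 ratio has a prior count of 2 and the Clopper-Pearson interval uses scipy 1.17.1. The code was tested on simulated data. Other tools were Python 3.11.15, numpy 2.4.6, pandas 2.3.3 and matplotlib 3.10.9. Of the 18444 gene IDs, 18403 were found in a RefSeq table, and 522 of 535 list genes were found.

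The text names up to 4 members of each list with the largest ratios among genes of 100 counts, the 15 highest and 15 lowest genes, the study's displayed diet genes and both receptors. Some genes that the rule selects are not reported here. Further list members were named after their values were seen. The 27 gene lists, 12 marker lists and the genes were chosen with earlier results of these data known. Alternatives were total counts, DESeq2 1.42.0 size factors, TMM over 3 diet libraries, no filter or 100 counts, a prior of 0.5, log2 of FPKM plus 1 or 0.1, intervals wholly past the fold, and an exact test in edgeR under an assumed spread between mice. No fit with a replicate block was possible.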

Additional observations from a re-analysis of the deposited data

How the results depend on the processing

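The number of genes past the fold depended on how low counts were treated. Against 880 higher and 611 lower genes, log2 of FPKM plus 1 gave 357 and 229, a minimum of 100 counts gave 397 and 364, and intervals wholly past the fold gave 339 and 322. Without a filter, 966 genes were lower. An exact test in edgeR under an assumed spread between mice passed 294 and 256 genes at an adjusted p-value under 0.05 for a coefficient of variation of 0.2, and 22 and 22 for 0.4, so that the assumed spread set the count. The other settings stayed within 1.5 times. Of 164 genes that the naming rule selected, 102 were past the fold, of which 4 no longer were with total counts or with log2 of FPKM plus 0.1, and 6 with log2 of FPKM plus 1. None of these 102 genes changed direction in the settings run on them, and further genes named in the text were not run gene by gene. DESeq2 size factors and TMM over the 3 diet libraries moved 0 of them across the fold. Without the genes that the study displayed, the medians of 8 lists were recomputed, that of the omega-hydroxylases moved from -1.57 to -0.32, and that of glucose metabolism from 0.01 to 0.12. No paired analysis was possible because each condition had 1 library. The depth limits counting error only, and the spread between mice is unknown.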
